A study of Mus musculus with 4 samples.

Results

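Transcripts of 10 genes of the BCL2 family were followed in mammary tumours of MMTV-Neu mice with and without the receptor tyrosine kinase AXL. The genes were Bcl2, Bcl2l1 and Mcl1 (pro-survival), Bax and Bak1 (effectors), and Bcl2l11, Bbc3, Pmaip1, Bmf and Bid (BH3-only), and they were found by symbol among the 38293 gene rows of each of 4 count files. All 10 had a row, and all 10 passed the filter on low counts. The study sequenced 2 tumours labelled WT and 2 labelled AXL KO, all on the FVB strain. Both groups carry the MMTV-Neu transgene, in which a mammary tumour virus promoter drives the Neu (Erbb2) oncogene, so WT refers to the Axl gene alone. The labels give neither the age of the mice, the design of the Axl allele nor whether the 2 libraries of a group came from separate animals. The p-values thus rest on the spread between these 4 samples, part of which may be technical. The description of AXL KO replicate 2 has another prefix than those of the other libraries, and its part in the differences was not tested.

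The BCL2 family sets the threshold at which a cell opens the outer membrane of its mitochondria and dies by apoptosis. Pro-survival members (BCL2, BCL-XL and MCL1) bind and restrain the pore-forming effectors BAX and BAK. BH3-only members (BIM from Bcl2l11, PUMA from Bbc3, NOXA from Pmaip1, BMF and BID) sense stress, loss of growth factors or death receptor signals, and tip the balance by occupying the pro-survival proteins or by engaging the effectors. In the mammary gland BIM and BMF are best known for clearing cells from the lumen of ducts, and MCL1 for the survival of the milk-producing epithelium. Several members are set at the level of the protein, MCL1 through fast turnover and BID through cleavage by caspase 8, which transcript counts do not show.

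Reads counted in genes ranged from 18929743 to 33131739 per library. Axl, the targeted gene, was at 61.8 and 35.2 CPM in the WT pair against 4.75 and 4.89 CPM in the AXL KO pair, where CPM is the gene count scaled to library size with TMM factors. The WT pair and the AXL KO pair are the 2 libraries of each group, given in the order replicate 1, replicate 2, and the numbers link no library of one group to the other. The WT tumours were thus the high ones, as their labels say. Epithelial markers were present in every library, with a sum over 8 markers of 3596 to 4360 CPM, while Krt19 was at 3.27 to 9.24 CPM. T cell and NK cell markers summed to 3.30 CPM in WT replicate 2 and to 16.5 to 25.9 CPM in the other libraries, and WT replicate 2 was the highest library for 34.6% and the lowest for 35.8% of the 14330 genes tested. Fibroblast markers summed to 280 CPM in AXL KO replicate 1 against 690 and 1002 CPM in the WT pair and 925 CPM in AXL KO replicate 2. Of 6 B cell markers and 7 neutrophil markers 2 each passed the filter, and Ly6g had 0 reads in each library. In bulk tumour RNA, fewer cells of a type and less RNA per cell cannot be told apart.

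The start regions of 5 members are shown because 4 of them (Bmf, Bid, Bbc3 and Bcl2l1) were the members that lay lower in both AXL KO libraries than in both WT libraries, and the last, Bcl2l11, is shown beside Bbc3 for a motif that both hold. Each is the 250 bases before a RefSeq transcript start (GRCm38.p6), written 5′ to 3′ on the gene's strand, and 9 of the 10 members matched, with 16 such windows. For genes with several windows 1 is shown, the one farthest upstream for Bmf and Bcl2l1 and, for Bbc3 and Bcl2l11, the one chosen because it holds the shared motif. Capitals mark exact matches, on either strand, to the core bound by FOXO factors (TGTTTAC), the core bound by HIF factors (ACGTG), the AP-1 motif (TGACTCA) and the E-box bound by SNAI factors (CAGGTG), none of which overlaps another in these windows.
Bmf (chr2:118549687-118549936, minus strand): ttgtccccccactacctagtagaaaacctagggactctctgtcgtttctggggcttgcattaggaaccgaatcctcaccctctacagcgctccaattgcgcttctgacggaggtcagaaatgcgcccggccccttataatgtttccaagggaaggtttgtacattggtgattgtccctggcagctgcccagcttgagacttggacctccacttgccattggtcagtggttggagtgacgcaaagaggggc
Bid (chr6:120916825-120917074, minus strand): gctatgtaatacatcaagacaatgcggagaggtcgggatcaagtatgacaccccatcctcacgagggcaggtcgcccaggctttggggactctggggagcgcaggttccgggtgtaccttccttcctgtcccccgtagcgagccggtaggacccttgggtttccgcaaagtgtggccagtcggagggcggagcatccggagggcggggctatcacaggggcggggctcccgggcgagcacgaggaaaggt
Bbc3 (chr7:16310011-16310260, plus strand): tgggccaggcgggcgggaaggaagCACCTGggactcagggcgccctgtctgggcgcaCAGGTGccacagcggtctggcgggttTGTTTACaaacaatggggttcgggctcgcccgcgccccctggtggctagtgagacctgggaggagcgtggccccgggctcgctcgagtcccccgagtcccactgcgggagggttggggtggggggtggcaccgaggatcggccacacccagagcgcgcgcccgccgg
Bcl2l1 (chr2:152831729-152831978, minus strand): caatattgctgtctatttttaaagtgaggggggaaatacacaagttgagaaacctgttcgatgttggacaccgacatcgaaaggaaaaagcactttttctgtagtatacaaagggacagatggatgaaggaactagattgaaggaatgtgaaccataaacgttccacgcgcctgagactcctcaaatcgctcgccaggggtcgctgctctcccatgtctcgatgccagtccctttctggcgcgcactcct
Bcl2l11 (chr2:128125788-128126037, plus strand): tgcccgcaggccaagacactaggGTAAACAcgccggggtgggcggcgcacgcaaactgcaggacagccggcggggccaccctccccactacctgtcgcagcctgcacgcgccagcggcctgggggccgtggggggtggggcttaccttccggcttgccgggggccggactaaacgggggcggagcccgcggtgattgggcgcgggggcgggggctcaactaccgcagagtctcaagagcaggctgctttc

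The Bbc3 window held 1 FOXO core and 2 SNAI E-boxes, and the Bcl2l11 window held 1 FOXO core. Of the other windows of these 2 genes, which are not shown, 1 of Bbc3 held the HIF core on both strands, and 1 of Bbc3 and 1 of Bcl2l11 held none of the 4 motifs. The FOXO core occurs in 3.17% of all 32851 RefSeq windows of this length, the HIF core in 16.6%, the AP-1 motif in 4.46% and the E-box in 17.2%. The windows of Bmf, Bid and Bcl2l1 held no exact match to these 4 motifs. These are matches of letters and show neither binding nor use. The windows of Bmf and Bid include 1 and 29 bases that GENCODE counts as an exon of the same gene.

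Lower transcript levels of the BH3-only genes Bmf and Bid were the widest differences among the 10 members, and neither passed the test across all genes. At an adjusted p of 0.05, edgeR's quasi-likelihood test called 0 of the 10 members and 0% of all 14330 genes tested, and every member had an adjusted p of 0.9997. Axl, the targeted gene, was not called either, at a log2 difference of −3.33 ± 0.35 (SE; edgeR's quasi-likelihood test, unadjusted p = 0.00018, adjusted p = 0.9997). A member that was not called is thus not shown to be unchanged. Members with an unadjusted p under 0.05 numbered 2 (Bmf and Bid), where 2.19% of all genes tested reached it. For 4 members (Bmf, Bid, Bbc3 and Bcl2l1) the higher AXL KO tumour was still below the lower WT tumour, a separation that 14.5% of all genes tested showed. For 0 members the AXL KO pair was wholly above the WT pair, as it was for 14.7% of all genes. Separation in either direction, found for these 4 of 10 members, was found for 29.2% of all genes. The log2 difference (AXL KO minus WT) was negative for 9 members and positive for 1, Pmaip1, where 49.7% of all genes were positive, with a median of −0.17 over the 10 and of −0.0019 over all genes tested. With 2 libraries against 2, an exact two-sided permutation test of a single gene cannot go below p = 0.333.

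**Figure D1:**
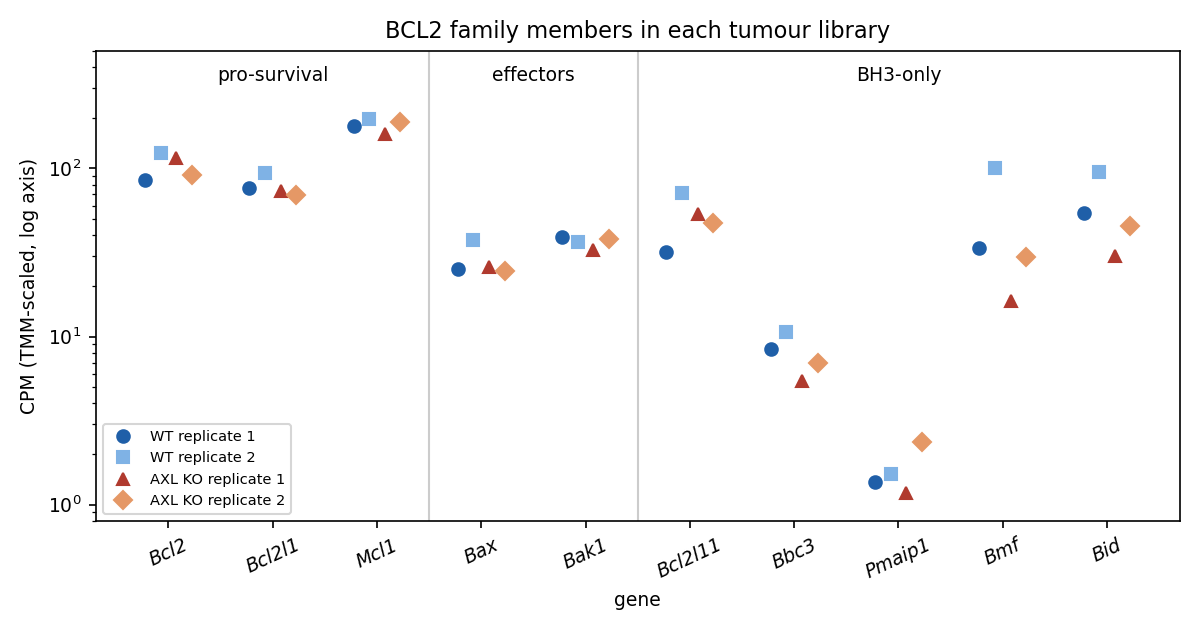
CPM on a log axis (y) of the 10 BCL2 family members (x), ordered by role, with 1 point per tumour library. WT replicate 2 is the highest point for 8 of the 10 genes, where it is the highest library for 34.6% of all genes tested. Both AXL KO points lie below both WT points for Bcl2l1, Bbc3, Bmf and Bid.

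Bmf, which encodes a BH3-only protein that binds the dynein light chain and responds to loss of cell attachment, was at 33.5 and 100.8 CPM in the WT pair against 16.2 and 29.5 CPM in the AXL KO pair. The groups did not overlap, but WT replicate 1 and AXL KO replicate 2 lay next to each other, and WT replicate 2 stood far above the rest. The group means were 67.2 ± 47.6 CPM for WT against 22.9 ± 9.41 CPM for AXL KO (SD, n = 2 each). The log2 difference was −1.55 ± 0.59 (SE), which is 2.93-fold lower (edgeR's quasi-likelihood test, unadjusted p = 0.0449, adjusted p = 0.9997). Without WT replicate 2 the log2 difference was −0.54, and without WT replicate 1 it was −2.13 (edgeR adjusted p = 0.981 and 0.0849). The Bmf gene spans 118528757 to 118549687 of chromosome 2, minus strand (GRCm38, GENCODE M21).

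Bid, whose product carries the death receptor signal to mitochondria once caspase 8 has cut it, was at 54.1 and 95.1 CPM in the WT pair against 30.3 and 45.3 CPM in the AXL KO pair. Both WT libraries were the higher ones, with WT replicate 2 at the top and AXL KO replicate 1 at the bottom. The means were 74.6 ± 28.9 CPM for WT against 37.8 ± 10.6 CPM for AXL KO (SD, n = 2 each). The log2 difference was −0.98 ± 0.35 (SE), or 1.97-fold lower (edgeR's quasi-likelihood test, unadjusted p = 0.0373, adjusted p = 0.9997). The difference was −0.52 without WT replicate 2 and −1.33 without WT replicate 1. Bid occupies 120891930 to 120916853 on the minus strand of chromosome 6, where 628 bases of its exons also belong to Bcl2l13 on the other strand. The strand setting of the counting is not given in the sources used here, so reads from those bases cannot be assigned to one of the genes. Bcl2l13 itself was at 93.9 and 88.4 CPM in the WT pair against 84.6 and 92.8 CPM in the AXL KO pair, with overlapping groups.

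Bbc3 encodes PUMA, a BH3-only protein induced by p53 and by FOXO factors that binds every pro-survival member. It was at 8.46 and 10.6 CPM in the WT pair against 5.45 and 6.99 CPM in the AXL KO pair, so the groups did not overlap. The counts behind these levels were 181, 203, 102 and 233 reads. The log2 difference was −0.61 ± 0.32 (SE), or 1.53-fold lower, and it did not pass edgeR's test (unadjusted p = 0.11, adjusted p = 0.9997). It ran from −0.82 to −0.44 with 1 library left out, the narrowest such range in relation to its size among Bmf, Bid and Bbc3. Bbc3 lies on the plus strand of chromosome 7 from 16308393 to 16318205, 9.44 Mb from Axl, which is on the same chromosome.

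In Bbc3, Bmf and Bid the libraries stood in the same order, with WT replicate 2 highest, WT replicate 1 next, then AXL KO replicate 2, and AXL KO replicate 1 lowest. This order was found in 6.55% of all genes tested (938 genes). The share of reads that the counting left as ambiguous between genes ran in the opposite order, at 0.635%, 0.981%, 1.09% and 1.85% of all counted lines, and its part in these differences was not tested.

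Bcl2l11 and Pmaip1, the other BH3-only genes, showed no common direction. Bcl2l11, which encodes BIM, the main death signal after growth factor withdrawal, was at 31.9 and 70.9 CPM in the WT pair against 53.1 and 47.4 CPM in the AXL KO pair. The AXL KO libraries fell between the WT libraries. The log2 difference of −0.03 ± 0.39 (SE) moved to 0.65 without WT replicate 2 and to −0.50 without WT replicate 1, so its direction differed with the WT tumour that was kept. Pmaip1, which encodes NOXA, a partner that favours MCL1, was at 1.36 and 1.52 CPM in the WT pair against 1.18 and 2.37 CPM in the AXL KO pair. It rested on 29, 29, 22 and 79 reads, and AXL KO replicate 2 was the high library, with an exact 95% Poisson interval of 1.88 to 2.95 CPM against 0.736 to 1.78 CPM in AXL KO replicate 1 (counting error only). The log2 difference of Pmaip1 was 0.33 ± 0.51 (SE) and turned to −0.30 without AXL KO replicate 2.

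The 3 pro-survival genes had log2 differences between −0.25 and −0.02. Mcl1 was at 178 and 197 CPM in the WT pair against 161 and 188 CPM in the AXL KO pair, with interleaved groups and a log2 difference of −0.10 ± 0.18 (SE). Bcl2, the founding member of the family, was at 84.9 and 124 CPM in the WT pair against 115 and 91.3 CPM in the AXL KO pair. The AXL KO libraries lay between the WT libraries, with a log2 difference of −0.02 ± 0.25 (SE), which was 0.28 without WT replicate 2 and 0.12 without AXL KO replicate 2. Bcl2 shares 558 exon bases with D630008O14Rik on the opposite strand, which had 0 reads in each library.

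Bcl2l1, which encodes BCL-XL, was at 76.0 and 94.3 CPM in the WT pair against 73.5 and 69.7 CPM in the AXL KO pair. Its groups did not overlap, though WT replicate 1 and AXL KO replicate 1 were nearly level. The log2 difference was −0.25 ± 0.19 (SE; edgeR's quasi-likelihood test, unadjusted p = 0.24, adjusted p = 0.9997) and −0.09 without WT replicate 2. No pro-survival member was thus higher in both AXL KO tumours than in both WT tumours.

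The effector genes gave small differences. Bax was at 25.3 and 37.4 CPM in the WT pair against 26.0 and 24.7 CPM in the AXL KO pair, and 3 of the 4 libraries were nearly level while WT replicate 2 was high. The log2 difference was −0.31 ± 0.26 (SE) and came to 0.00013 without WT replicate 2. Bak1 was at 39.2 and 36.2 CPM in the WT pair against 32.6 and 38.0 CPM in the AXL KO pair, the narrowest spread of the 10 genes, with 1.2-fold between its highest and lowest library. Its log2 difference was −0.10 ± 0.20 (SE). A stretch of 437 bases of the Bak1 exons is shared with Ggnbp1 on the opposite strand, and Ggnbp1 was at 9.90 to 15.9 CPM.

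Bax, Bbc3 and Pmaip1 are also textbook targets of p53. Their log2 differences were −0.31, −0.61 and 0.33, and none passed edgeR's test. Pmaip1 turned to −0.30 without AXL KO replicate 2, and Bax came to 0.00013 without WT replicate 2. A part of p53 in these values was not tested.

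**Figure D2:**
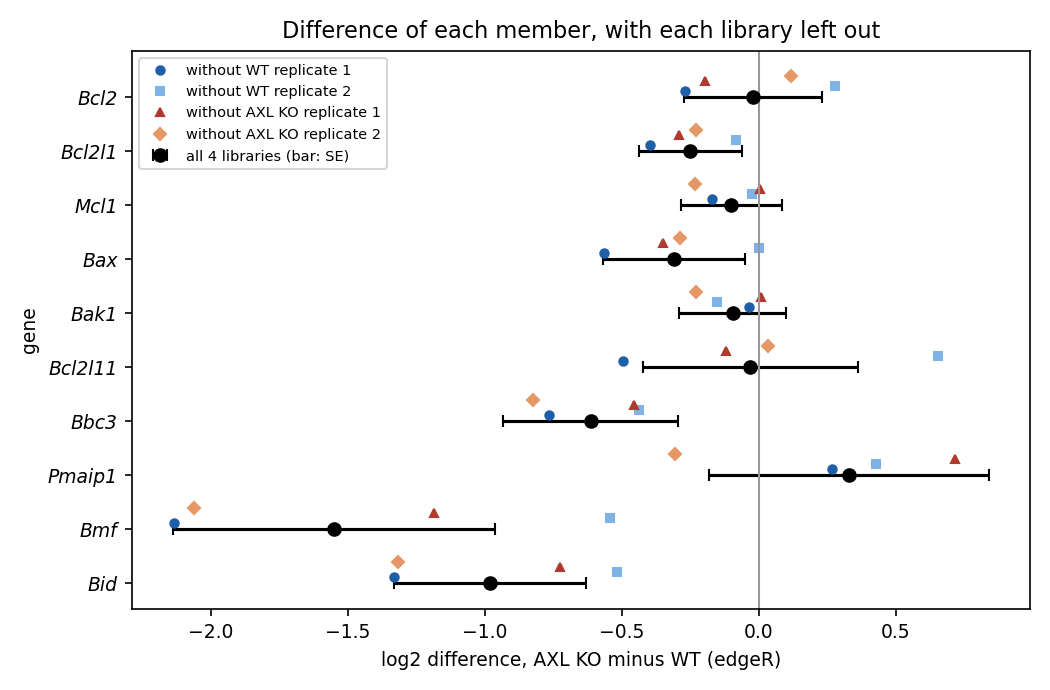
Log2 difference between AXL KO and WT (x) for each member (y), with the value over all 4 libraries and its standard error in black and the values with 1 library left out in colour. Leaving out WT replicate 2 brings Bmf to −0.54 and Bid to −0.52 and takes Bcl2l11 to 0.65. Bmf, Bid, Bbc3 and Bcl2l1 lie below 0 with any library left out, which follows from their groups not overlapping and adds no support.

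Among the members, levels per exon length put Mcl1 first and Pmaip1 last in every library. On the scale of CPM per kilobase of merged exons (RPKM) Mcl1 ranged from 47.1 to 57.6 over the 4 libraries. Next came Bax (15.6 to 23.8), Bcl2l1 (15.2 to 20.6), Bid (8.53 to 26.8) and Bak1 (13.5 to 16.3), whose ranges overlapped, so their order was not resolved. Bcl2 ranged from 9.27 to 13.5, Bmf from 3.09 to 19.2, Bcl2l11 from 3.98 to 8.83 and Bbc3 from 2.56 to 5.0, again with overlaps between neighbours. Pmaip1 was at 0.43 to 0.867 RPKM. Bmf varied most, with 6.21-fold between its highest and lowest library, followed by Bid with 3.14-fold. Lengths came from GENCODE M21, and a gene that uses short 3′ ends in these tumours has a higher level per length than given here.

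Summed by role, the BH3-only genes were lower in both AXL KO libraries than in both WT libraries. Their sum was 30.1 and 60.4 RPKM in the WT pair against 21.2 and 28.4 RPKM in the AXL KO pair. WT replicate 1 and AXL KO replicate 2 were close, and WT replicate 2 was far above both. BH3-only transcripts made up 21.5% and 31.6% of the RPKM of all 10 members in WT and 16.7% and 20.3% in AXL KO. Within that group Bid and Bmf supplied 71.9% and 76.2% in WT and 54.7% and 64.6% in AXL KO. Pro-survival genes summed to 77.8 and 91.7 RPKM in WT and to 75.7 and 80.3 RPKM in AXL KO, and effectors to 32.4 and 38.8 RPKM and to 30.0 and 31.4 RPKM. The effector sums did not overlap between the groups either, though Bax and Bak1 each did, and the pro-survival sums overlapped. Among single genes 29.2% were separated in either direction, and no such share was computed for sums. The BH3-only sum rests mostly on Bmf and Bid, which were separated as single genes. These sums have no test, and their separation is not a further result about the members.

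**Figure D3:**
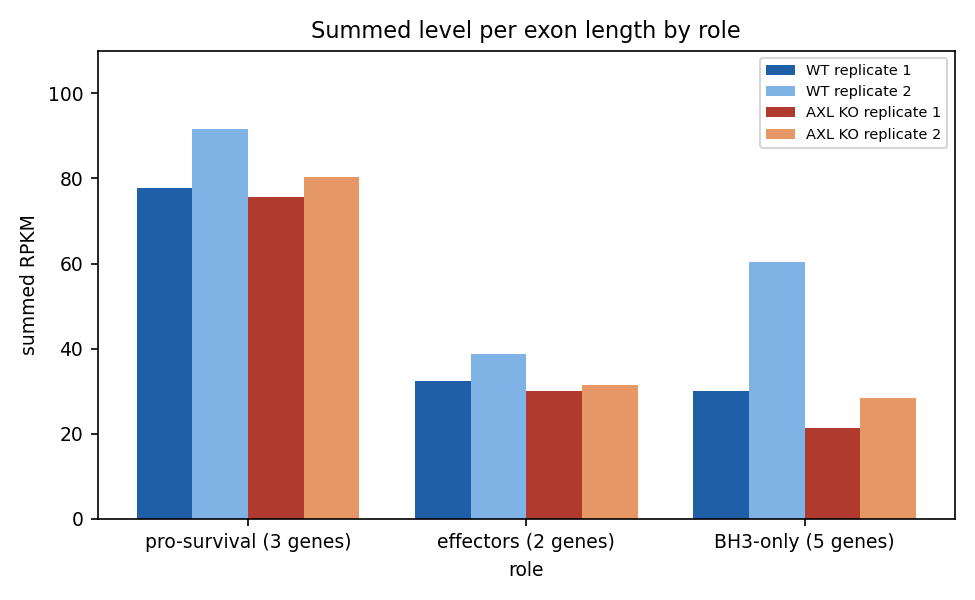
Summed RPKM (y) of the pro-survival, effector and BH3-only members (x), with 1 bar per library. The BH3-only sum of WT replicate 2 is 60.4 against 21.2 to 30.1 in the other 3 libraries, while the pro-survival sums run from 75.7 to 91.7.

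Ratios between members of the same library, which do not depend on how libraries are scaled, separated the groups for 3 of 8 pairs. Among single genes 29.2% were separated in either direction, so a count of 3 in 8 is near the background and is not a result about these members. The values of the pairs are given as a description. The ratio of Bmf to Bcl2 per exon length was 0.688 and 1.42 in the WT pair against 0.247 and 0.564 in the AXL KO pair. The ratio of Bbc3 to Mcl1 was 0.0767 and 0.0869 in WT and 0.0544 and 0.0597 in AXL KO. The ratio of Bax to Bcl2 was 1.73 and 1.76 in WT and 1.32 and 1.57 in AXL KO. In each of these 3 pairs, picked for their separation, both AXL KO tumours had less of the death gene for each unit of the pro-survival gene. The other pairs of a death and a pro-survival gene went the other way in mean log2 ratio (AXL KO minus WT). The values were 0.08 for Bcl2l11 to Bcl2, 0.18 for Bcl2l11 to Mcl1 and 0.32 for Pmaip1 to Mcl1.

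Other pairs overlapped. Bcl2l11 to Bcl2 was 0.429 and 0.653 in WT and 0.529 and 0.593 in AXL KO, and Bcl2l11 to Mcl1 was 0.0766 and 0.153 in WT and 0.14 and 0.107 in AXL KO. Pmaip1 to Mcl1, Bax to Bak1 and Mcl1 to Bcl2l1 also had interleaved groups. The mean log2 ratio of AXL KO minus that of WT was −1.40 for Bmf to Bcl2, −0.52 for Bbc3 to Mcl1 and −0.28 for Bax to Bcl2. With 1 library left out these ran from −2.0 to −0.81, from −0.61 to −0.43 and from −0.40 to −0.15. A pair whose groups do not overlap cannot change sign in this way. The kept sign of the 3 pairs thus restates their separation and adds no support. Each of the other 5 pairs changed sign with some library left out.

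Of 5 other pro-survival genes 3 had a row, and the 2 that passed the filter had positive differences. Bcl2l2, which encodes BCL-W, was at 120 and 104 CPM in the WT pair against 136 and 119 CPM in the AXL KO pair. Bcl2a1b, a pro-survival gene of blood cells with near-identical copies whose reads cannot be separated with certainty, was at 2.15 and 1.52 CPM in the WT pair against 2.56 and 2.94 CPM in the AXL KO pair. Bcl2l10 had 2 reads in AXL KO replicate 1 and 0 elsewhere.

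Of 6 further death genes 5 were tested, 4 with negative differences and a median of −0.60, which is the value of Bnip3l. Bik, a BH3-only gene, was at 13.7 and 20.9 CPM in the WT pair against 11.0 and 8.67 CPM in the AXL KO pair. Its groups did not overlap, and its log2 difference was −0.82 ± 0.33 (SE; edgeR's quasi-likelihood test, unadjusted p = 0.0532, adjusted p = 0.9997), or −0.48 without WT replicate 2. Bad and Bok overlapped, with log2 differences of 0.13 and −0.43, and Hrk had 3 reads, all in WT replicate 2.

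Bnip3 and Bnip3l, BH3-like genes of mitophagy that HIF factors induce under hypoxia, were highest in WT replicate 2. Bnip3 was at 28.2 and 143 CPM in the WT pair against 36.8 and 29.9 CPM in the AXL KO pair, and Bnip3l at 95.5 and 186 CPM in the WT pair against 95.7 and 89.9 CPM in the AXL KO pair. The other 3 libraries lay close together for both genes. The log2 difference of Bnip3 went from −1.36 ± 0.73 (SE) to 0.24 without WT replicate 2, and that of Bnip3l from −0.60 ± 0.34 to −0.04. WT replicate 2 was likewise the highest library for Bcl2, Bcl2l1, Mcl1, Bax, Bcl2l11, Bbc3, Bmf and Bid, where it was the highest for 34.6% of all genes tested. The part of that library's state in the differences of these members was not tested. Without it 5 members lay below and 2 above, the 2 being Bcl2 and Bcl2l11. The share of all genes separated without that library was not computed, so these counts have no background.

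Downstream of BAX and BAK, the mitochondrial gate and apoptosome had a list median near 0. Of its 10 genes 3 had positive and 7 negative differences (median −0.10). Apaf1, the scaffold of the apoptosome, had a log2 difference of −0.38, and Htra2 and Diablo, whose products block caspase inhibitors, had 0.29 and 0.22. The AXL KO pair was wholly above the WT pair for 2 genes of the list and wholly below it for 3, where 14.7% and 14.5% of all genes tested were. The 2 above were Htra2 (59.2 and 54.9 CPM in the WT pair against 68.2 and 71.6 CPM in the AXL KO pair) and Diablo (74.9 and 69.9 CPM in the WT pair against 92.3 and 76.4 CPM in the AXL KO pair). Of this list 0 genes passed edgeR's test and 0 had an unadjusted p under 0.05.

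Caspase inhibitors and the death receptor pathway had positive medians. Of 7 caspase inhibitors 6 had positive differences (median 0.26), where 49.7% of all genes tested were positive. The median is the value of Birc6, at 136 and 134 CPM in the WT pair against 133 and 189 CPM in the AXL KO pair. Only AXL KO replicate 2 was thus high for Birc6. In 2 caspase inhibitors, Naip2 and Naip5, the AXL KO pair was wholly above the WT pair, as in 14.7% of all genes. Naip5, an inflammasome sensor with caspase-inhibitor repeats, was at 1.68 and 1.05 CPM in the WT pair against 2.88 and 4.17 CPM in the AXL KO pair, with a log2 difference of 1.37 ± 0.46 (SE; edgeR's quasi-likelihood test, unadjusted p = 0.0301, adjusted p = 0.9997). Naip2 and Naip5 are close paralogs whose counts are uncertain. Naip2 was at 17.96 and 13.6 CPM in the WT pair against 18.00 and 28.3 CPM in the AXL KO pair. Its log2 difference was 0.56, or 0.17 without AXL KO replicate 2. Birc5, which encodes survivin and follows cell division, was at 21.3 and 47.0 CPM in the WT pair against 18.4 and 22.6 CPM in the AXL KO pair, with WT replicate 2 high.

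Of 11 death receptor genes 10 were tested, 7 of them positive (median 0.16), where 49.7% of all genes tested were. In 4 of them (Tnfsf10, Tnfrsf21, Fas and Cflar), and in 14.7% of all genes, both AXL KO libraries were the higher ones. Of the list 0 genes were wholly lower. Cflar was at 128.5 and 125.5 CPM in the WT pair against 128.9 and 156.8 CPM in the AXL KO pair, so WT replicate 1 and AXL KO replicate 1 were nearly level. Tnfsf10, which encodes the death ligand TRAIL and is induced by interferon, was at 45.6 and 15.1 CPM in the WT pair against 56.3 and 71.3 CPM in the AXL KO pair. Tnfrsf21, which encodes death receptor DR6, was at 159 and 87.3 CPM in the WT pair against 185 and 214 CPM in the AXL KO pair. Fas, the receptor upstream of caspase 8 and BID, was at 4.11 and 3.87 CPM in the WT pair against 5.98 and 5.37 CPM in the AXL KO pair. WT replicate 2 was the lowest library for Tnfsf10, Tnfrsf21 and Fas. Their log2 differences were 1.07 ± 0.53, 0.69 ± 0.32 and 0.50 ± 0.32 (SE), or 0.48, 0.32 and 0.46 without WT replicate 2, and 0 genes of either list passed edgeR's test.

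**Figure D4:**
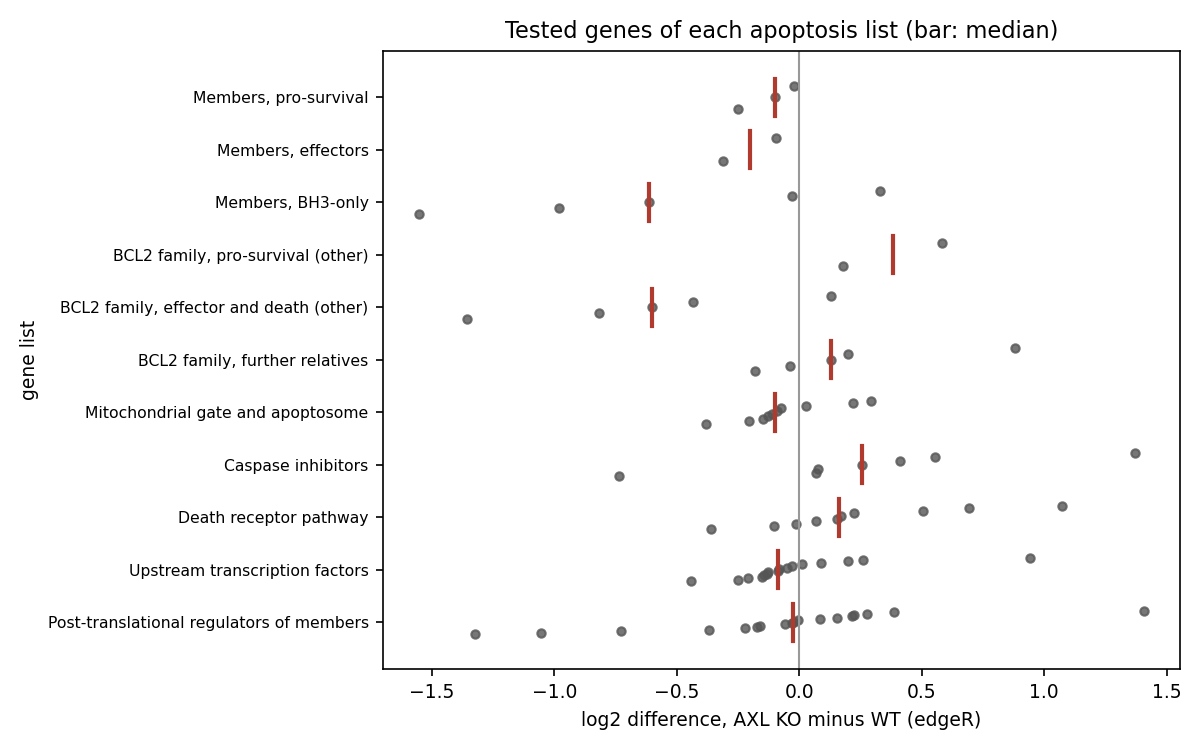
Log2 difference between AXL KO and WT (x) of each tested gene in 11 lists (y), with the median of the list as a bar. The medians of the BH3-only members and of the other death genes lie at −0.61 and −0.60, and those of the caspase inhibitors and the death receptor pathway at 0.26 and 0.16. The median of the other death genes is the value of Bnip3l, which came to −0.04 without WT replicate 2. That of the caspase inhibitors is the value of Birc6, which was high in AXL KO replicate 2 only.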

How the data were processed

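RNA was sequenced from 2 WT and 2 AXL KO tumours, grouped and numbered by the sample titles. The deposited files hold whole-number read counts per Ensembl gene, without normalisation. Tools named in the submitters' processing notes, with no roles, are TopHat2 2.0.10, HTSeq 0.5.3, CASAVA 1.8 and DESeq2 1.4.5, and the build is GRCm38. For the annotation release and the strand setting the sources used here give nothing. The 5 summary lines stayed out of library sizes: 5.28 to 8.11% of all lines summed lay outside genes, 0.635 to 1.85% were ambiguous and 23.2 to 28.1% aligned more than once. No library repeated another within sampling noise (chi-square per degree of freedom 30.3 to 151). Of 38293 gene rows 36345 matched GENCODE M21 (GRCm38), which gave symbols and merged exon lengths.

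edgeR 4.0.16 in R 4.3.3 (filterByExpr, TMM, estimateDisp, glmQLFit with legacy=FALSE, glmQLFTest) was fitted on 14330 genes without covariates, with Benjamini-Hochberg adjustment over all of them and a threshold of 0.05. The biological coefficient of variation was 0.31. Alternatives were DESeq2 1.42.0 as a test or for size factors, limma-voom (limma 3.58.1), library totals, other low-count filters, a threshold of 0.10, the replicate number as a block and each library left out. Named were all 10 members, every tested gene of the other pro-survival and death lists, and up to 3 genes of smallest p in each further list. The members and lists were chosen with earlier results of these data known. Values of some genes are not reported here.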

Additional observations from a re-analysis of the deposited data

How the results depend on the processing

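No member passed edgeR, DESeq2 or limma-voom at an adjusted p of 0.05 under any alternative run, and the smallest adjusted p of a member was 0.0849, for Bmf without WT replicate 1. Over all genes DESeq2 called 16, where edgeR called 0 with 314 at an unadjusted p under 0.05 and limma-voom 0 with 285. With 1 library left out, edgeR called 0 to 216 genes, the 216 without WT replicate 1. The median log2 difference of the members then ran from −0.45 (without WT replicate 1) to −0.054 (without WT replicate 2). Members for which the AXL KO libraries kept lay wholly below the WT libraries kept then numbered 5 to 8. There were 8 without WT replicate 1 and 7 without AXL KO replicate 2. Members wholly above numbered 0 to 2, the 2 without WT replicate 2. The share of all genes separated with 1 library left out was not computed, so these counts have no background. The description of AXL KO replicate 2 has another prefix than those of the other libraries. Values without that library thus rest only on libraries that share a prefix. Bcl2l11 turned positive in limma-voom (0.083) and with the replicate number as a block (0.076). Same-numbered libraries did not deviate together (correlation −0.045), and the block gave 0 called genes and 0 called members, with a median of −0.17.

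The lowest and highest log2 differences with 1 library left out, for genes whose sign changed, were −0.27 and 0.28 for Bcl2, −0.57 and 0.00013 for Bax, −0.50 and 0.65 for Bcl2l11, −1.44 and 0.34 for Bok, −0.065 and 0.36 for Bad, −2.10 and 0.24 for Bnip3, −0.78 and 2.1e-05 for Hif1a, −0.23 and 0.0037 for Mcl1, −0.23 and 0.0062 for Bak1 and −0.30 and 0.72 for Pmaip1. Without WT replicate 1 Bnip3 and Tnfsf10 passed edgeR's test (−2.10 and 2.08, adjusted p = 0.0271 and 0.0472), and their adjusted p was at least 0.922 in the other alternatives. The cause of these shifts was not tested.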

Other observations

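Among 18 genes whose products act on BCL2 family proteins, 7 had positive and 11 negative differences (median −0.03), and 0 passed edgeR's test. Pim1, a kinase that phosphorylates BAD, was at 11.0 and 26.5 CPM in the WT pair against 7.53 and 7.44 CPM in the AXL KO pair. Both WT tumours were higher, with a log2 difference of −1.32 ± 0.47 (SE; edgeR's quasi-likelihood test, unadjusted p = 0.0351, adjusted p = 0.9997), or −0.55 without WT replicate 2. Ywhaz, which encodes a 14-3-3 protein that holds phosphorylated BAD in the cytosol, was at 260 and 310 CPM in the WT pair against 219.9 and 222 CPM in the AXL KO pair. Trim17, which encodes a ubiquitin ligase of MCL1, was at 0.374 and 0.157 CPM in the WT pair against 0.801 and 0.66 CPM in the AXL KO pair. These levels rested on only 8, 3, 15 and 22 reads.

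Of 16 tested transcription factors upstream of the family, 5 had positive and 11 negative differences (median −0.09), with 0 passing edgeR's test. Trp63, a p53 relative of basal epithelium, was at 0.795 and 1.62 CPM in the WT pair against 2.51 and 2.13 CPM in the AXL KO pair. Foxo1, an activator of Bcl2l11 and Bbc3, was at 130.0 and 105 CPM in the WT pair against 127 and 155 CPM in the AXL KO pair. Hif1a was at 136 and 233 CPM in the WT pair against 119 and 153 CPM in the AXL KO pair, and its log2 difference of −0.44 came to 2.1e-05 without WT replicate 2. Bcl2l14, a less studied relative of the family, was at 82.0 and 32.0 CPM in the WT pair against 141 and 68.8 CPM in the AXL KO pair, with overlapping groups and a log2 difference of 0.88 ± 0.55 (SE). Bnip1 was above in both AXL KO libraries and Bnip2 below, with log2 differences of 0.20 and −0.18.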
